A study of Danio rerio with 6 samples.

Results

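The genes described here start the complement cascade in zebrafish: the proteases of the C1 complex (c1r and c1s), the proteases and the lectin of the lectin pathway (masp1, masp2 and mbl2), the copies of component C4 that those proteases cut (c4 and c4b), and the factors of the alternative pathway (cfb, cfbl and cfd). They were chosen by name, as the rows of a table of 23354 genes whose name is 1 of these 10. Of the 10 names, 6 stand in the table as such (c1r, masp1, masp2, c4, cfb and cfd). The other 4 were found under other names through the gene name table and RefSeq: c1s as C1S (now c1s.1), mbl2 as hbl3, c4b as si:dkey-8k3.2 and cfbl as zgc:158446. Positions are those of the deposited table, on GRCz11 per the submitters' processing notes, and all 10 rows are annotated as protein-coding genes. All 10 are described, and counts are given for the 6 named in the table and for the 10.

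Complement is a set of blood proteins, made largely by hepatocytes, that tags microbes and punches holes in them. In the classical pathway the recognition molecule C1q carries C1r and C1s, and in the lectin pathway mannose-binding lectin and related lectins carry the MASP proteases. Both routes cut C4, whose fragment forms part of a convertase that cuts C3. In the alternative pathway factor D cuts factor B bound to a fragment of C3, and this forms a second convertase that feeds back on C3.

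RNA from dissected liver of adult fish was sequenced in 3 libraries of capn3b-/- mutants and 3 libraries of the wild type laboratory strain AB. Calpain 3, the protein that capn3b encodes, is a calcium-dependent cysteine protease, and the series asked which genes differ between mutant and wild type liver. Age in months, sex, the allele and the number of fish behind a library are not in the labels, and the genotype label of the mutants names no background strain. Genotype therefore cannot be told apart from sex or from strain background, if either differed. Whether replicate libraries stem from different fish is not stated either, so p-values measure the spread between these libraries, which may be technical.

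Levels are in FPKM, which divides a gene's reads by its length and by the library's depth, so that they can be compared between genes. Depth, recovered from the steps in the values, ran from 16858409 to 19492592 reads a library. The mutated gene had 0, 0 and 1 reads in the mutant libraries and 0 reads in each wild type library, so it checks no label, and no member lies on its chromosome, 20. All 15 hepatocyte markers were detected, with summed levels of 159576 to 165094 FPKM in mutant and 153241 to 164827 FPKM in wild type libraries. Some other cell markers differed more. The summed level of 8 neutrophil markers was 28 to 70.1 FPKM in mutant and 8.16 to 14.3 FPKM in wild type libraries. That of 9 macrophage markers was 325 to 519.9 FPKM in mutant and 203 to 328 FPKM in wild type libraries. For 6 cholangiocyte markers it was 719 to 886 FPKM in mutant and 401 to 457 FPKM in wild type libraries. For the 6 erythrocyte markers found it was 177 to 199 FPKM in mutant and 340 to 404 FPKM in wild type libraries. As for macrophages, the groups overlapped in the sums of endothelium and stellate cell, T and B cell, adipocyte and exocrine pancreas markers. The pancreas sum was 181, 507 and 662 FPKM in mutant replicates 1 to 3 and 1435, 229 and 186 FPKM in wild type replicates 1 to 3. The cholangiocyte sum rested largely on the keratin gene krt18, with means of 531 FPKM in mutant and 204 FPKM in wild type liver. Of the 6 cholangiocyte markers 2 passed as higher (limma, adjusted p under 0.05), against 5.91% of all tested genes. In whole liver, fewer cells of a type and less RNA per cell cannot be told apart.

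The entry genes did not move together. Component c4b and factor D (cfd) were higher in mutant liver, the lectin pathway protease masp1 was lower, and the other 6 tested members did not pass the test. These calls were not equally firm. Of 14 alternative fits, that of c4b held in 11, that of masp1 in 7 and that of cfd in 3. Of the 6 genes named in the table, all of which were tested, 1 rose and 1 fell, and with the 4 others 2 rose and 1 fell among 9 tested, where 11.4% of all 11164 tested genes passed in either direction (limma, Benjamini-Hochberg adjusted p under 0.05). By direction, 5.91% of all tested genes rose and 5.45% fell, 660 and 608 genes, a balance that turned to 612 higher and 804 lower with median scaling, 644 and 736 with quantile normalization and 644 and 780 with limma voom, and that was 663 and 422 without wild type replicate 3. Tested genes had at least 1 FPKM in at least 3 libraries, a filter that mbl2 did not meet. The groups did not overlap in 6 of the 9 members, with 4 higher and 2 lower ones, against 33.8% of all tested genes, 19.1% higher and 14.7% lower. The median log2 fold change was 0.20 over the 9 tested members and 0.05 over all tested genes. Log2 fold changes here are mutant over wild type, taken on log2(FPKM + 1), and this makes the change of low genes look smaller than it is.

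**Figure D1:**
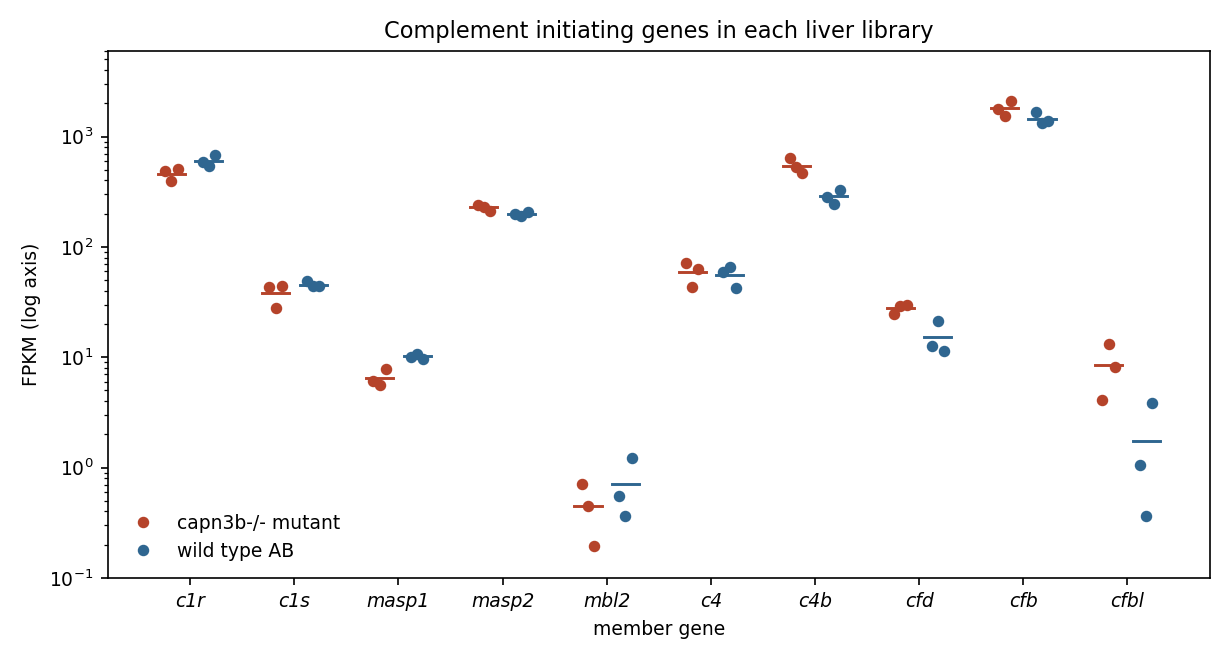
FPKM of the 10 member genes (x axis) in each library on a log axis, with capn3b-/- mutant libraries in red on the left and wild type AB libraries in blue on the right of each gene; the lines are group means. The levels run from 0.194 FPKM for mbl2 to 2083 FPKM for cfb, and the groups stand apart for c1r, masp1, masp2, c4b, cfd and cfbl.

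The members spanned a wide range of levels. In wild type liver cfb was the most abundant at a mean of 1458 FPKM, the 51st highest mean of the whole table, followed by c1r at 605, c4b at 287 and masp2 at 199 FPKM. Then came c4 at 55.7 and c1s at 45.6 FPKM, whose ranges overlapped, cfd at 15.1, masp1 at 10.2, and cfbl at 1.75 and mbl2 at 0.714 FPKM, whose ranges overlapped too. In mutant liver c4b stood second at a mean of 546 FPKM and c1r next at 462 FPKM, with overlapping ranges. There cfbl, at 8.48 FPKM, stood above masp1, at 6.52 FPKM, also with overlapping ranges. Overlaps were found in the mutant too between c4 and c1s and between c1s and cfd. The members together took 0.495% to 0.595% of all FPKM in a mutant library and 0.41% to 0.5% in a wild type library. Of this sum cfb made up 54% to 60.9% in mutant and 50.8% to 58.2% in wild type libraries, while c1r made up 14.1% to 14.7% in mutant and 20.4% to 25.2% in wild type libraries. The smallest gene length that fits the values of c1r is 643 bases, and multiples of it would fit too. In reads recovered at the smallest lengths that fit, c1r had 7371, 6053 and 7394 in the wild type libraries. There masp2 had 10624, 9168 and 9651 reads and c4b had 33293, 25294 and 33288 reads. A greater length means more reads, so the order of these genes in reads is not settled.

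Among the C1 proteases, c1r (ENSDARG00000100248, chromosome 16, 31706118 to 31718692, minus strand), the protease that activates its partner C1s, had 484, 397 and 504 FPKM in the mutant libraries and 588, 545 and 682 FPKM in the wild type libraries. Every mutant library was below every wild type library, but the difference did not pass the test, at -0.39 in log2 fold change (adjusted p = 0.136, standard error 0.15, 95% interval -0.74 to -0.04 before adjustment). The partner protease c1s (ENSDARG00000100599, chromosome 16, 31719990 to 31730938, minus strand), which cuts C4, had 43.4, 27.7 and 44.3 FPKM in the mutant libraries and 48.8, 44.2 and 43.8 FPKM in the wild type libraries. These groups overlapped, mutant replicate 2 alone standing well below the rest, and the log2 fold change was -0.27 (adjusted p = 0.423, 95% interval -0.73 to 0.19).

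The C1 protease genes lie in a tandem cluster. Between c1r and c1s lie 1297 bases, and 1595 bases on the other side of c1r lies wu:fd46c06, which RefSeq now names c1s.2 and which is no member. The deposited annotation gives complement C1s as the closest UniProt protein of the c1r row. The smallest gene length that fits the FPKM of c1r is 643 bases, against 2586 bases for c1s. Multiples of these lengths would fit as well, so whether the gene model of c1r is short is not settled. In reads at these smallest lengths, c1r had 5571, 4573 and 5982 in the mutant and 7371, 6053 and 7394 in the wild type libraries. In the deposited transcript lists the c1r transcripts were joined with a neighbouring gene in mutant replicate 3 and in all 3 wild type libraries, and carried its name alone in mutant replicates 1 and 2.

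Summed over c1s.2, c1r and c1s, the cluster had 540.1, 425 and 556 CPM, recovered reads divided by depth, in the mutant libraries, against 598, 554 and 634 CPM in the wild type libraries. On this sum the groups overlapped, mutant replicate 3 lying just above wild type replicate 2. The reads are again those at the smallest gene lengths that fit. A greater length for any of these genes would give it more reads and could change this overlap. The neighbour c1s.2, singled out after its values were seen, had 71.8, 60.3 and 72.3 FPKM in the mutant libraries and 57.3, 55 and 50.8 FPKM in the wild type libraries, with a log2 fold change of 0.32 and an adjusted p of 0.185.

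**Figure D2:**
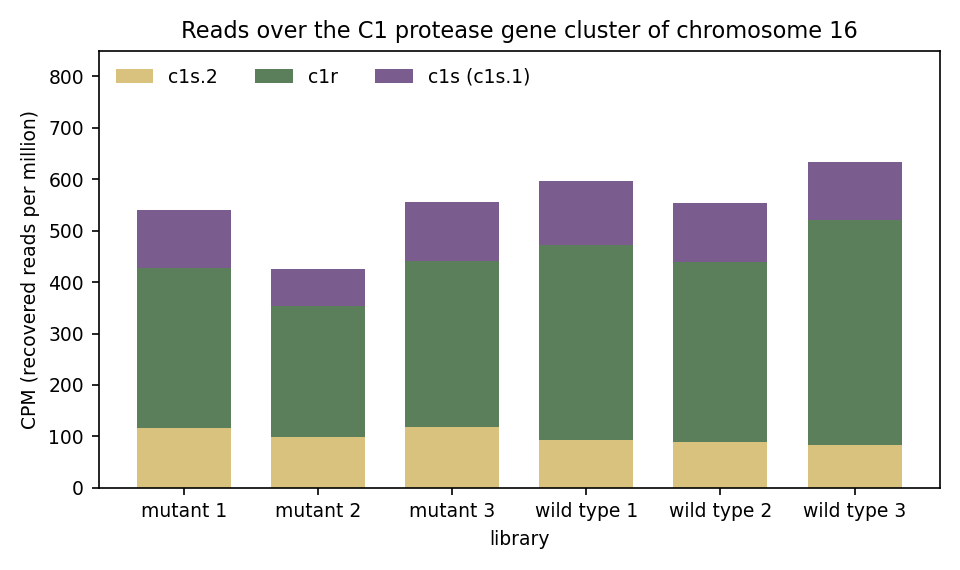
Recovered reads in CPM (y axis) over the C1 protease cluster of chromosome 16 in each library (x axis), stacked as c1s.2 (yellow), c1r (green) and c1s (purple). With reads at the smallest gene lengths that fit, the stacks reach 425 to 556 CPM in the mutant and 554 to 634 in the wild type libraries. On these reads c1r takes the largest share in all 6.

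In the lectin pathway, masp1 fell. This gene (ENSDARG00000068726, chromosome 15, 36329471 to 36365888, plus strand) encodes a protease that is carried by mannose-binding lectin and activates MASP-2. It had 6.13, 5.63 and 7.79 FPKM in the mutant libraries and 10.1, 10.8 and 9.71 FPKM in the wild type libraries. The groups stood apart, with means of 6.52 ± 1.13 FPKM in mutant and 10.2 ± 0.542 FPKM in wild type liver (SD, n = 3 each). The log2 fold change was -0.59 (standard error 0.15, adjusted p = 0.0445, limma). Its adjusted p lay between 0.0285 and 0.137 over 14 alternatives and was above 0.05 in 7 of them, including those that left out mutant 1 (0.137), mutant 2 (0.137), wild type 1 (0.1), wild type 2 (0.13) or wild type 3 (0.0684).

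The second lectin pathway protease did not share this direction. Of masp2 (ENSDARG00000007988, chromosome 23, 28843684 to 28869616, plus strand), which cuts C4, 242, 231 and 212 FPKM were measured in the mutant and 197, 192 and 207 FPKM in the wild type libraries. All mutant libraries were above all wild type libraries, by a small step, and the log2 fold change was 0.20 (standard error 0.13, adjusted p = 0.35, 95% interval -0.09 to 0.49). The level of masp2 was thus far above that of masp1 in every library. Within a library, the log2 ratio of FPKM + 1 of masp2 over masp1 was 5.09, 5.13 and 4.60 in the mutant and 4.16, 4.03 and 4.28 in the wild type libraries, 0.78 higher in the mutant. The groups stood apart, and the two-sided exact permutation p was 0.1, the smallest that 3 against 3 libraries allow (adjusted 0.267 over 4 pairs).

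Transcript forms of masp1 varied from library to library. Its transcripts began either at the first exon or at an exon near 36358406, inside the gene, and this inner start took 39.3%, 0% and 0% of its FPKM in mutant replicates 1, 2 and 3, against 35%, 28.8% and 0% in wild type replicates 1, 2 and 3. An exon of masp1 at 36355515 to 36355574 was kept in 49% of the FPKM in mutant replicate 2 and listed at 0 in the 5 other libraries. Neither form separated the groups (exact permutation p = 1 for both). Transcripts ending early, in an exon that begins at 36355515, were listed with 4.35, 0 and 0 FPKM in the mutant libraries and 10.7, 11.1 and 5.86 FPKM in the wild type libraries. This end site was singled out after its values were seen and is given without a test. A value of 0 in these lists can also be a failed estimate.

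The lectin gene mbl2, a recognition molecule of this pathway, was near the lower limit of the data (ENSDARG00000068220, chromosome 2, 37904820 to 37906754, minus strand). It had 0.702, 0.451 and 0.194 FPKM in the mutant and 0.553, 0.364 and 1.22 FPKM in the wild type libraries, from 14, 9 and 4 mutant reads and 12, 7 and 23 wild type reads. Only wild type replicate 3 passed 1 FPKM, so the gene was not tested, and its groups overlapped. A limit of 3 reads corresponds to 0.16 FPKM for this gene in the shallowest library and covers counting error only. The neighbouring lectin gene hbl4, 4020 bases away and no member, had means of 53.1 ± 12.1 FPKM in mutant and 39.7 ± 5.77 FPKM in wild type liver (SD, n = 3 each), with overlapping groups and an adjusted p of 0.235.

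Of the copies of C4, the substrate of both pathways, c4b rose and c4 did not pass. The c4b row (ENSDARG00000038424, chromosome 16, 16757226 to 16793741, minus strand) had 641, 528 and 469 FPKM in the mutant and 286, 245 and 330.2 FPKM in the wild type libraries. The lowest mutant library stood well above the highest wild type library, and the means were 546 ± 87.1 FPKM in mutant and 287 ± 42.6 FPKM in wild type liver (SD, n = 3 each). This is a ratio of means of 1.9, or 0.92 in log2 fold change (adjusted p = 0.0168, limma, standard error 0.17). Over 14 alternatives the adjusted p lay between 0.0115 and 0.0644, and leaving out mutant 1 (0.0585), mutant 2 (0.0521) or wild type 2 (0.0644) ended the call. The deposited transcript lists, a second quantification of the same libraries, gave c4b 739, 608 and 534 FPKM in the mutant and 299, 282 and 384 FPKM in the wild type libraries.

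The gene c4 (ENSDARG00000015065, chromosome 15, 32493907 to 32525550, minus strand) had 71.9, 43.3 and 62.9 FPKM in the mutant libraries and 59.3, 65.5 and 42.4 FPKM in the wild type libraries. These groups overlapped throughout, and the log2 fold change was 0.08 (standard error 0.24, adjusted p = 0.856, 95% interval -0.46 to 0.63). Its span overlaps trim3a on the other strand, and no source says that strand was used in counting, but trim3a had no more than 1.54 FPKM in any library. The log2 ratio of c4b over c4 was 3.14, 3.58 and 2.88 in the mutant and 2.25, 1.89 and 2.93 in the wild type libraries, a difference of 0.84 with overlapping groups (exact permutation p = 0.2, adjusted 0.267). Exon skipping was compared only at 32504301 to 32504360 in c4 and between 16776992 and 16778960 in c4b. A skipped form of c4 appeared in wild type replicate 2, where 69.1% of the FPKM kept that exon, and in the other 5 libraries 100% did. For c4b, the form that keeps the exons between 16776992 and 16778960 took 100% in all 6.

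In the alternative pathway the gene for factor D, the protease that cuts factor B, rose. The cfd row (ENSDARG00000039579, chromosome 13, 13550689 to 13553342, plus strand) had 24.9, 28.9 and 29.8 FPKM in the mutant and 12.6, 21.4 and 11.3 FPKM in the wild type libraries. All mutant libraries were above all wild type libraries, of which replicate 2 came nearest, and the means were 27.8 ± 2.6 FPKM in mutant and 15.1 ± 5.52 FPKM in wild type liver (SD, n = 3 each). The log2 fold change was 0.89 (standard error 0.23, adjusted p = 0.0483, limma). This call held in 3 of 14 alternatives, among them that without wild type replicate 2 (0.0223), and was lost when mutant 1 (0.0944), mutant 2 (0.129), mutant 3 (0.105), wild type 1 (0.126) or wild type 3 (0.1) was left out.

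In mammals adipocytes and myeloid cells make factor D. Of the 6 adipocyte markers, adipoqa, adipoqb and plin1 stayed under 1 FPKM in every library, and the summed level of the 5 in the table was 14.6 to 18 FPKM in mutant and 12.1 to 16.8 FPKM in wild type libraries. Of 7 tested neutrophil markers 6 rose, and of 9 tested macrophage markers 4 rose, where 5.91% of all tested genes rose. The summed neutrophil level was 28, 70.1 and 60.1 FPKM in mutant replicates 1 to 3, against 12.9, 8.16 and 14.3 FPKM in wild type replicates 1 to 3. The summed macrophage level was 325, 376 and 519.9 FPKM in the mutant replicates, in the order of their cfd levels, against 220.2, 203 and 328 FPKM in the wild type replicates, which were not in that order. For the neutrophil level, mutant replicate 1 was the lowest mutant library, as it was for cfd, and wild type replicate 2 was the lowest wild type library, where cfd was the highest of the wild type. The part of these cells in the cfd result was not tested.

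Factor B itself, the protease of the alternative convertase, did not pass. Its gene cfb (ENSDARG00000055278, chromosome 21, 27379589 to 27394702, plus strand) had 1779, 1536 and 2083 FPKM in the mutant and 1676, 1323 and 1374 FPKM in the wild type libraries. Mutant replicate 2 was below wild type replicate 1, so the groups overlapped, and the log2 fold change was 0.30 (standard error 0.16, adjusted p = 0.26, 95% interval -0.06 to 0.66).

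The factor B-like gene cfbl (ENSDARG00000090730, chromosome 21, 27412161 to 27424511, plus strand) lies 17458 bases further on and had a much lower level. It had 4.12, 13.1 and 8.22 FPKM in the mutant libraries and 1.06, 0.36 and 3.85 FPKM in the wild type libraries, from 190, 604 and 391 mutant reads and 53, 16 and 167 wild type reads. The groups stood apart by a narrow margin, mutant replicate 1 against wild type replicate 3. Its log2 fold change, at 1.87, was the largest among the 9 tested members (standard error 0.50), and its adjusted p of 0.0513 missed the threshold. Over 13 alternatives the adjusted p lay between 0.0236 and 0.153 and was under 0.05 in 4 of them, with median scaling (0.0484), quantile normalization (0.0487), limma voom on recovered reads (0.0491) and without wild type replicate 3 (0.0236). Without that library the ratio of mean FPKM was 12, against 4.83 with it. The log2 ratio of cfb over cfbl was 8.44, 6.77 and 7.82 in the mutant and 9.67, 9.93 and 8.15 in the wild type libraries, which overlapped (exact permutation p = 0.2, adjusted 0.267). In mutant replicates 1 and 3 the transcript lists joined cfb and cfbl in 1 assembled gene, and in the other 4 libraries they kept them apart.

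**Figure D3:**
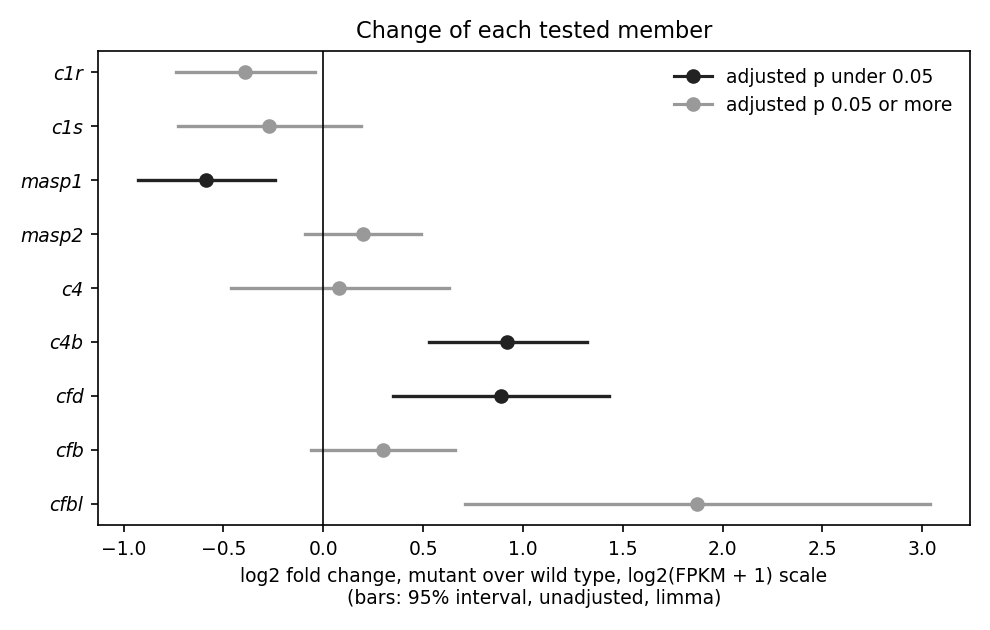
Log2 fold change of the 9 tested members, mutant over wild type (x axis, log2(FPKM + 1) scale), ordered by step of the cascade; points are estimates and bars their 95% intervals from limma, before adjustment. The black points, masp1 at -0.59, c4b at 0.92 and cfd at 0.89, passed the adjusted threshold, and cfbl at 1.87 has the widest bar.

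**Figure D4:**
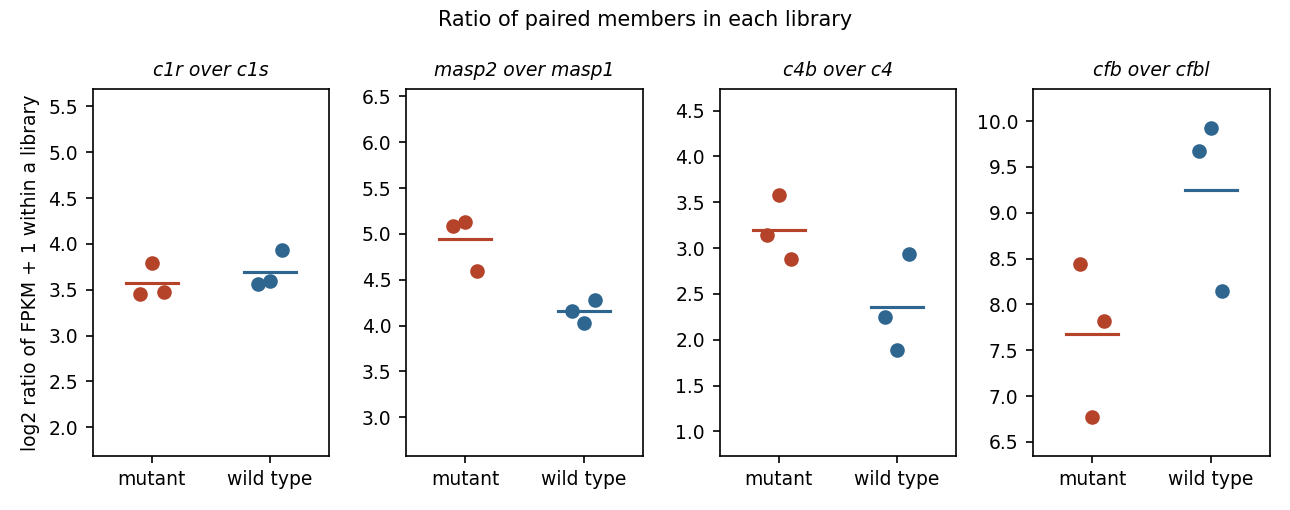
Log2 ratio of FPKM + 1 between paired members within each library (y axis, the same span in each panel), with mutant libraries in red on the left and wild type libraries in blue on the right and lines at the means. The masp2 over masp1 ratio stands apart between the groups, at 4.60 to 5.13 in the mutant and 4.03 to 4.28 in the wild type libraries, and the other 3 ratios overlap.

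The remaining ratio, that of c1r over c1s, was 3.45, 3.79 and 3.48 in the mutant and 3.56, 3.60 and 3.93 in the wild type libraries on the log2 scale. These values overlapped, with a difference of -0.12 (exact permutation p = 0.5, adjusted 0.5 over 4 pairs).

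For the members with the smallest p, the genes with the most similar profile over the 6 libraries were found by the root mean square difference of centred log2(FPKM + 1) values, a description without a test. Among the nearest to c4b were ddost (difference 0.0729), a subunit of the oligosaccharyltransferase of the endoplasmic reticulum, and rec8b (0.0896), a meiotic cohesin gene. The rec8b row had 2.12, 1.88 and 1.68 FPKM in the mutant and 0.576, 0.375 and 0.973 FPKM in the wild type libraries. It met the filter of 1 FPKM only through the group where it was high, so its likeness supports nothing about c4b. Nearest to masp1 were acadm (0.0356), a dehydrogenase of fatty acid oxidation, epn3a (0.0509), an endocytosis adaptor, and apoc2 (0.0527), the activator of lipoprotein lipase. The profiles nearest to cfd were less alike: mhc1zba, an MHC class I gene, at 0.166, pde1a, a cyclic nucleotide phosphodiesterase, at 0.167, and cyp2u1, a cytochrome P450, at 0.18. For scale, ddost had 74.2, 67.8 and 52.1 FPKM in the mutant and 33.7, 30.2 and 41.4 FPKM in the wild type libraries. Within each group the libraries stood in the same order as for c4b. This is no added result, since ddost was chosen for its likeness over these values.

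Beside these entry genes stand 4 lists of other complement genes, which do not hold the whole cascade. The row named C2 is in none of them. Singled out after its values were seen, C2 had means of 501 FPKM in mutant and 278 FPKM in wild type liver. Its log2 fold change was 0.84 (adjusted p = 0.0159, limma), given for the main fit only. Of 5 tested recognition genes 2 rose, against 5.91% of all tested genes, and 3 did not pass. The median log2 fold change of the 5 was 0.76. The risen ones encode chains of C1q: c1qb had means of 17.8 ± 3.18 FPKM in mutant and 9.14 ± 2.09 FPKM in wild type liver (adjusted p = 0.0273), and c1qc had 28.2 ± 4.25 FPKM in mutant and 13.8 ± 4.54 FPKM in wild type liver (adjusted p = 0.0306, limma, SD, n = 3 each). The last C1q chain gene, c1qa, had 15.6 ± 2.38 FPKM in mutant and 9.18 ± 3.73 FPKM in wild type liver and did not pass (adjusted p = 0.0914). C1q is made by macrophages, whose summed marker level stands above, and the part of these cells was not tested. Over 14 alternatives the adjusted p ran from 0.0219 to 0.0988 for c1qb and from 0.0166 to 0.108 for c1qc, and the call was lost in 5 of them for c1qb and in 6 for c1qc. These included leaving out mutant 1 (c1qb 0.0839, c1qc 0.056), mutant 3 (0.0651, 0.0721), wild type 1 (0.0775, 0.082) or wild type 2 (0.0988, 0.108), and for c1qc mutant 2 (0.0911).

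Of 16 tested rows of the substrates and terminal components 7 rose, against 5.91% of all tested genes, and 9 did not pass, with a median of 0.53. The 3 with the smallest p were c3a.2, a C3 gene, and c9 and c7a, genes of the pore, with log2 fold changes of 1.04, 0.84 and 1.01. Reads of near-identical C3 copies may not have been separable. The count of 7 fell to 1, c3a.2, when mutant 1 or wild type 2 was left out. It was 3 to 5 when any other single library was. Over all tested genes the calls fell too, from 1268 to 516 without mutant 1 and to 414 without wild type 2. The count of this list was 3 without the filter or with the replicate number as a block, where 592 and 950 of all genes passed. Of the calls named, that of c3a.2 held in all 14 alternatives. That of c9 was lost without the filter (adjusted p = 0.0786, limma) and when mutant 1 (0.0524), mutant 2 (0.0523) or wild type 2 (0.0517) was left out. That of c7a was lost when mutant 1 (0.0512) or wild type 2 (0.0645) was left out. Of 12 tested regulators 3 rose, 1 fell and 8 did not pass, with a median of 0.24, where 5.91% of all tested genes rose and 5.45% fell. The 3 with the smallest p were BX950188.1, which the gene name table calls cpn2, a subunit of carboxypeptidase N, with a log2 fold change of -0.84, and the factor H-like genes cfhl5 and cfhl3, with 1.16 and 0.70. The BX950188.1 row had 0.954, 0.606 and 0.778 FPKM in the mutant and 2.27, 2.36 and 1.91 FPKM in the wild type libraries, so it met the filter of 1 FPKM only through the group where it was high, and its fall supports nothing about the list. The other gene that rose, named after its values were seen, was cfp, the gene for properdin, which stabilizes the alternative convertase and which myeloid cells make, with means of 4.11 ± 1.55 FPKM in mutant and 1.64 ± 0.576 FPKM in wild type liver (SD, n = 3 each) and a log2 fold change of 0.93 whose adjusted p rounds to 0.05. Without wild type replicate 2 all 4 regulators missed the threshold (BX950188.1 0.0521, cfhl5 0.0537, cfhl3 0.152, cfp 0.152). In all, the call of cfhl3 was lost in 10 of 14 alternatives and that of cfp in 7 of 13. These included leaving out mutant 1 (0.0749 and 0.107), mutant 2 (0.116 and 0.0548) or mutant 3 (0.109 and 0.0959). The call of cfhl3 was also lost without wild type 3 (0.106), and that of cfp without wild type 1 (0.113). Both were lost with a pseudocount of 0.1 (0.0506 and 0.051) and without the filter (0.0949 and 0.125).

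The receptors had 1 tested gene, the integrin gene itgb2, which had 8.7 ± 3.47 FPKM in mutant and 3.45 ± 2.3 FPKM in wild type liver (adjusted p = 0.0808). Each of these lists had a median above the 0.20 of the 9 tested members, and whether the lists differ was not tested.

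**Figure D5:**
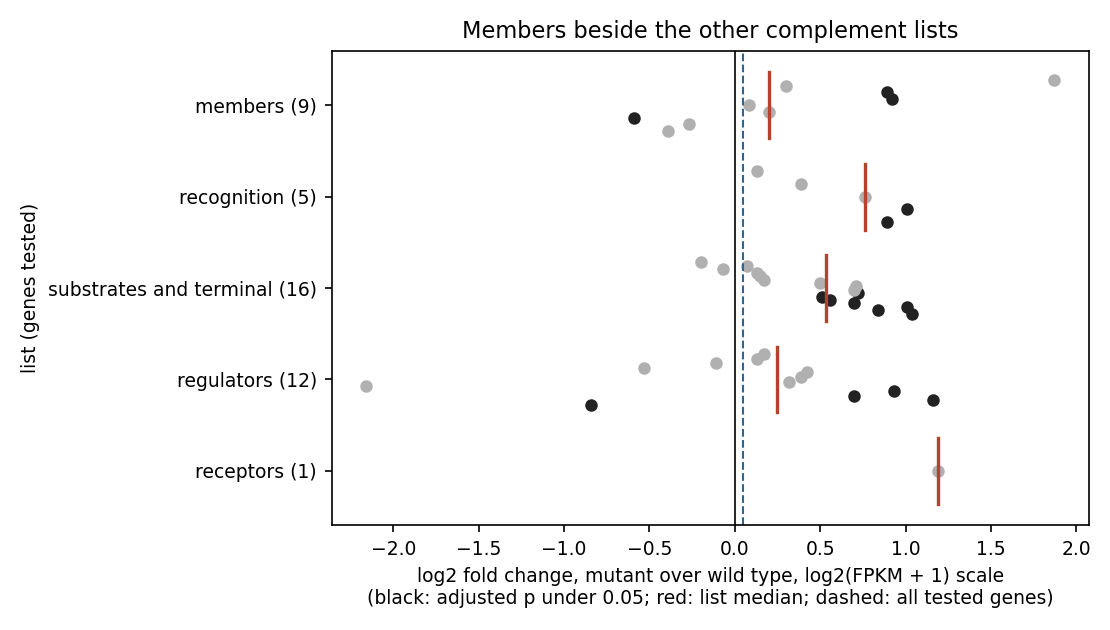
Log2 fold change, mutant over wild type (x axis, log2(FPKM + 1) scale), of each tested gene of the members and of 4 other complement lists (rows, with the number of genes tested); black points passed an adjusted p of 0.05, red lines are list medians and the dashed line is the median of all tested genes, 0.05. The medians are 0.20 for the members, 0.76 for recognition, 0.53 for substrates and terminal components and 0.24 for regulators.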

How the data were processed

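RNA-seq of adult zebrafish liver was used, in 3 mutant (capn3b-/-) and 3 wild type (AB) libraries, grouped by their genotype label. The authors deposited FPKM per gene, and FPKM per transcript form in separate lists. The submitters' processing notes name GRCz11 and DESeq2; the aligner, the counter and its strand setting were not given in the sources used here. Coordinates are those of the deposited table.

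Genes reaching 1 FPKM in 3 or more of the 6 libraries entered the test, made on log2(FPKM + 1) with limma 3.58.1 in R 4.3.3 (mean-variance trend, 2 groups, Benjamini-Hochberg adjustment over 11164 genes, threshold 0.05). Within-library ratios and transcript forms were compared by two-sided exact permutation tests over libraries. Whole reads were recovered from the FPKM steps: 100.000% of genes came out whole within 0.05 reads in all libraries. The length of each gene was chosen as the smallest that gives whole reads, so this share does not show that the reads or lengths are right. Counting limits use 3 reads, cover counting error only, and depth was 16858409 to 19492592 reads. Of the IDs, 21036 matched the gene name table.

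The fit and the recovery of reads were also tested on simulated data. The genes named are the members, the 3 genes of each complement list with the smallest p, and for the 3 members with the smallest p the 3 genes of most similar profile, clone and database names left out; 1 gene that this rule names is not reported here. The members and lists were chosen with earlier results of these data known. The alternatives were another pseudocount, 2 other scalings, 2 other filters, robust moderation, the replicate number as a block, limma voom with TMM on recovered reads, and each library left out. Sequences were not used here.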

Additional observations from a re-analysis of the deposited data

How the results depend on the processing

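Over the alternatives, tested members kept their direction except c4, whose log2 fold change ran from -0.10 (wild type replicate 3 left out) to 0.29 (mutant replicate 2 left out) and was -0.07 with mutant replicate 1 left out. The count of all genes changed, 1268, was 592 without the filter and 414 to 1134 with 1 library left out. Among the 6 members named in the table, 2 passed (3 at an unadjusted p under 0.05, against 3146 of all 11164 tested genes). The count of 2 became 1 with a pseudocount of 0.1, median scaling, quantile normalization or limma voom and 0 to 1 with 1 library left out. Without the filter it was 0 (limma, 3 unadjusted, against 4452 of all 23354 genes). Among all 10 members 3 passed (5 unadjusted, against the same 3146 of all tested genes). The count of 3 became 1 without the filter and 0 to 2 with 1 library left out. The labels state no pairing of the libraries by replicate number, and the values showed no sign of it. Correlations of same-numbered libraries' deviations were -0.0448, -0.00964 and -0.0833, and each mutant library correlated best with a wild type library of another number. Correlations this small cannot exclude a pairing by replicate number. With the number as a block, 950 genes, 0 of the 6 members (limma, 3 unadjusted, against 2883 of all tested genes) and 1 of the 10 passed. The exon form of masp1 gave no value at a minimum of 5 FPKM. With 3 libraries a group, exact permutation p-values cannot go below 0.1, and the reads of mbl2 limit what can be said of it. The causes of these shifts were not tested.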
